A study of Homo sapiens with 16 samples.

Results

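The cells described here were the regulatory T (Treg) cells of mammary tumors, taken as every cell that carried the cluster name CD4_Treg-FOXP3 in the metadata the authors deposited with the counts. They numbered 267 of 48824 cells once each barcode found in several long-term pools was counted a single time, at its deepest copy, and 270 of 53946 cells as deposited. The tumors came from a pair of lines of LPA1-transgenic origin, LPA1-T22 (here T22) and LPA1-T127 (here T127), which were carried in syngeneic hosts as tumor chunks in the mammary fat pads of female FVB mice of 6 weeks. Cells were captured as droplets with hashtag antibodies and sequenced as single-cell RNA. Mice received the PARP inhibitor olaparib (50 mg/kg) or vehicle by daily oral gavage. In the long-term experiment (8 pools) T22 and T127 grew alone or were co-transplanted, with 20 days of treatment, and this gave 113 Treg cells. In the short-term experiments mice carried T127 (4 pools, 149 Treg cells) or T22 (4 pools, 5 Treg cells) and were treated for 4 or 8 days. Each model is a single transplant line, each pool mixed tumors of vehicle and olaparib mice, and no file used here ties a cell to its tumor, so olaparib and vehicle were not compared.

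Treg cells are CD4 T cells that restrain immune responses. The transcription factor Foxp3 fixes their identity, the high-affinity interleukin-2 receptor subunit Il2ra lets them take up the cytokine they depend on, and the inhibitory receptor Ctla4 strips costimulatory ligands from antigen-presenting cells. In tumors and other non-lymphoid tissues they are known for an activated state with tumor necrosis factor (TNF) receptors, Icos, the alarmin receptor Il1rl1 and the growth factor Areg.

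Levels are given as CPM (counts per 1000000), the unique molecular identifiers (UMIs) of a gene summed over a set of cells and divided by all UMIs of those cells, times 1000000. The reference was the other T cells of the same pools, the authors' clusters CD4_Tcm-TCF7, CD8_Tn-CCR7, Tgd and Tprf-MKI67, which held 1445 cells in the long-term pools, 240 in the T127 pools and 3500 in the T22 pools. Treg cells held 456854 UMIs in the long-term pools, 555807 in the T127 pools and 21055 in the T22 pools, with a median per cell of 3287, 3245 and 4309. Other T cells had medians of 3284, 2946 and 7082 UMIs. The clusters were built from these same genes, the pools were captures of mixed tumors and the cells could not be assigned to mice, so no p-value was computed and every difference is a description of these libraries. The values in parentheses after ratios are exact 95% intervals and those after shares are Clopper-Pearson 95% intervals, and both cover counting error only. Fewer cells of a type and less capture of that type cannot be told apart in these shares. Because each pool mixed tumors, a range over pools, or a lack of overlap between pools, does not measure the spread between tumors.

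Treg cells made up a large part of the T cells of short-term T127 tumors and a small part elsewhere. They were 38.3% of T cells (95% interval 33.5 to 43.3) in the T127 pools, 7.25% (6.01 to 8.66) in the long-term pools and 0.143% (0.0463 to 0.333) in the T22 pools. The T127 pools 1 to 4 held 46.9%, 32.1%, 43.8% and 28.9%. The long-term pools had a lowest share of 3.88%, a median of 7.44% and a highest share of 17.2%, and the T22 pools held 0.114%, 0.118%, 0.110% and 0.230%. The 3 groups of pools did not overlap. Counted instead as T cells of any cluster with a Foxp3 UMI, the shares were 30.9%, 4.43% and 1.31%, and 43 of the 46 such cells in the T22 pools lay outside the cluster. Of all cells, Treg cells were 1.86% in the T127 pools, 0.439% in the long-term pools and 0.0331% in the T22 pools. The short-term T127 and T22 pools shared dose and days of treatment. They differed in tumor model and in capture, which cannot be told apart. Against the long-term pools, model mix, days of treatment, transplant setting and experiment differed together and cannot be told apart.

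**Figure D1:**
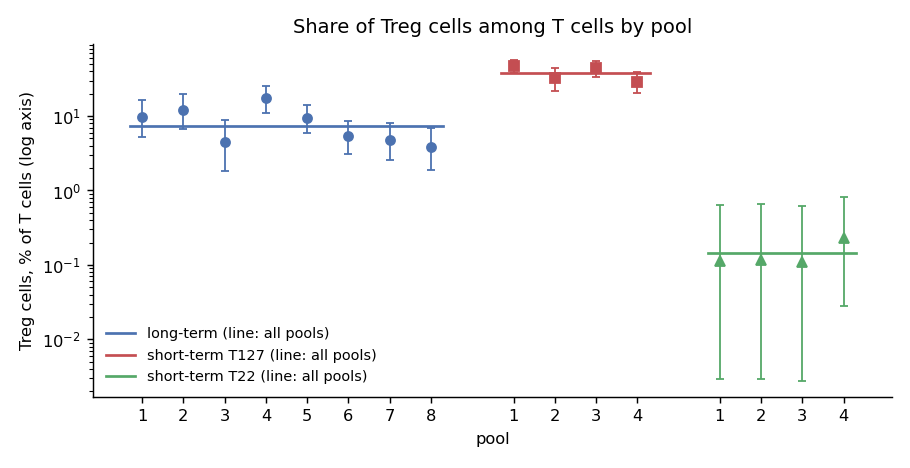
Treg cells as a percentage of T cells in each pool of the 3 experiments (log axis), with Clopper-Pearson 95% intervals as bars and the value over all pools of an experiment as a line. The 4 T127 pools lie between 28.9% and 46.9%, above the highest long-term pool at 17.2%, and the 4 T22 pools lie at or below 0.230%.

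The markers behind the name were present, and more of the T127 cells carried them. A Foxp3 UMI was found in 45 of 113 long-term Treg cells, 39.8% (30.7 to 49.5), and in 111 of 149 T127 Treg cells, 74.5% (66.7 to 81.3). After every cell was thinned to 2000 UMIs, which left out 18 long-term and 13 T127 Treg cells, the shares were 29.5% and 60.3%. Among cells that should lack Foxp3, it was found in 0 of 309 long-term B cells (median depth 2082 UMIs), which allows a share of cells with a UMI of up to 0.971% (3 of the 309), and in 0 of 141 T127 natural killer (NK) cells (median 6064). The deeper Macro-M2 macrophages (medians 11168 and 11286 UMIs) held a Foxp3 UMI in 6 of 3567 long-term and 6 of 1174 T127 cells, 0.168% and 0.511%. Il2ra was found in 47.8% of long-term and 79.2% of T127 Treg cells, Ctla4 in 62.8% and 83.9%, and Ikzf2, the Helios transcription factor of many Treg cells, in 62.8% and 87.9%. In NK cells Il2ra was found in 7.12%, Ctla4 in 8.90% and Ikzf2 in 6.05% of the long-term cells (median 5248 UMIs), and in 12.1%, 25.5% and 19.9% of the T127 cells. Il2ra did not set the long-term Treg cells apart by its share of cells alone, since it was found in 47.3% of the deeper long-term Tgd cells (median 5643 UMIs) and in 11 of 21 Tprf-MKI67 cells. At 2000 UMIs per cell the long-term Il2ra shares were 29.5% (20.6 to 39.7) in Treg cells and 20.7% (15.3 to 26.9) in Tgd cells. Of the 5 T22 Treg cells, 3 carried UMIs of all 4 markers.

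**Figure D2:**
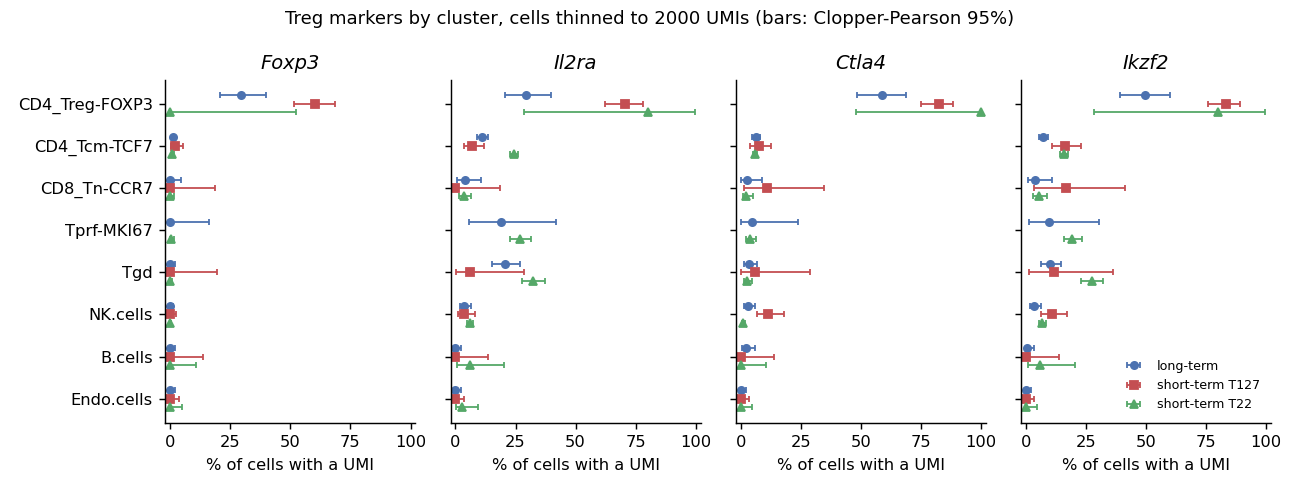
Percentage of cells with at least 1 UMI of Foxp3, Il2ra, Ctla4 and Ikzf2 in 8 of the authors' clusters and 3 experiments, after each cell was thinned to 2000 UMIs (groups under 3 cells are left out). Foxp3 was found in 29.5% of long-term and 60.3% of T127 Treg cells, against 1.20% and 1.88% of the CD4_Tcm-TCF7 cells.

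Not every long-term cell carried the markers. Of the 113 long-term Treg cells, 17 had no UMI of any of the 4 markers and 24 had a UMI of a single marker, so that 72 cells carried 2 or more. In the T127 pools 140 of 149 cells carried 2 or more markers and 9 carried 0 or 1. The 41 long-term cells with 0 or 1 marker were found in all 8 pools, with 13 of them in pool 5, and were not shallower (median 3801 UMIs) than the 72 others (2836 UMIs). These cells are described further on.

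As CD4 T cells, the Treg cells held more Cd4 and less Cd8a than the other T cells. Cd4 was at 120 against 46.0 CPM in the long-term pools, a ratio of 2.62 (1.92 to 3.51), and at 326 against 90.9 CPM in the T127 pools, a ratio of 3.58 (2.74 to 4.71). Cd8a, the alpha chain of the CD8 coreceptor, had ratios of 0.245 (0.130 to 0.422) and 0.0537 (0.0172 to 0.128). Trac, the constant segment of the alpha receptor chain, was at 1119 against 675 CPM and at 1326 against 497 CPM.

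The 4 markers were higher in Treg cells than in other T cells in both experiments. Foxp3 stood at 131 CPM against 4.91 CPM in the long-term pools, a ratio of 26.8 (16.99 to 43.0), and at 614 against 17.7 CPM in the T127 pools, a ratio of 34.6 (21.0 to 61.2). With each cell thinned to 2000 UMIs the Foxp3 log2 ratio was 5.42 in place of 4.49 in the long-term pools and 7.50 in place of 5.04 in the T127 pools. The thinned values rest on few Foxp3 UMIs in other T cells. In the thinned shares, 3 of 160 T127 CD4_Tcm-TCF7 cells held one. They depend on the random draw and are not read as a rise. Over the long-term pools its Treg level was 62.6 CPM at the lowest, 145 at the median and 211 at the highest, and in T127 pools 1 to 4 it was 783, 731, 432 and 464 CPM. Every T127 pool lay above every long-term pool for Foxp3. Il2ra was at 1340, 1004, 1050 and 1022 CPM in T127 pools 1 to 4, against 172, 259 and 468 CPM at the lowest, median and highest of the long-term pools, and again the pools did not overlap. Its ratio to other T cells was 2.93 (2.38 to 3.57) in the long-term and 12.6 (10.0 to 16.1) in the T127 experiment. Ikzf2 followed the same order, at 1575, 1487, 1449 and 1366 CPM in the T127 pools and at 194, 450 and 692 CPM at the lowest, median and highest long-term pool.

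Ctla4 was closer between the experiments. It was at 1834, 1920, 1509 and 1898 CPM in T127 pools 1 to 4 and at 609, 968 and 1870 CPM in the lowest, median and highest long-term pool, so the pools overlapped for Ctla4. Against other T cells its ratio was 22.6 (19.4 to 26.3) in the long-term pools and 15.4 (12.5 to 19.0) in the T127 pools. The T22 Treg cells gave 35 UMIs of Ctla4, or 1662 CPM, but 5 cells allow no more than that level.

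Across all genes, a gene was tested when it reached 20 CPM and 30 UMIs in the group where it was higher, and it was called at a ratio of 2 or more after 1 CPM was added to both sides. Since Treg cells were few, 30 UMIs meant 65.7 CPM in long-term and 54.0 CPM in T127 Treg cells, a higher bar than for a gene lower in Treg cells. A list member high in Treg cells could reach this minimum there alone. The lists were also chosen with earlier results of these data known, so their counts are description. The shares over all genes that follow are the background for each list. In the long-term pools 192 of 3742 genes (5.13%) were called higher in Treg cells and 218 (5.83%) lower, of which 192 and 186 had an interval that did not reach 1. For genes called higher the rule for a call nearly fixes this in advance, so it adds no support. After thinning to 2000 UMIs per cell these counts were 121 and 439, and the number called lower was 463 at a minimum of 10 CPM and 87 at 50 CPM. In the T127 pools 458 of 4189 genes (10.9%) were called higher and 355 (8.47%) lower, and 344 and 202 after thinning. With the long-term cells of 2 or more markers alone, the calls were 200 higher and 377 lower of 3206 genes. Of the 192 long-term genes called higher, 138 were also called higher in the T127 pools, which is 71.9% of the long-term and 30.1% of the T127 genes. Of the 218 called lower, 78 were called lower in both, 35.8% and 21.97% of the lists. Not every long-term gene was tested in the T127 pools, where 167 of the 192 and 128 of the 218 were.

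Of 10 genes that define Treg identity, 5 of 6 tested were called higher in the long-term pools and 8 of 8 in the T127 pools, and none was called lower. The median log2 ratio over the members was 2.07 and 3.18, beside -0.08 and 0.04 over all genes tested. These genes were chosen as Treg genes, so their direction is what the cluster name already holds. In T127 tumors Ikzf4, the Eos transcription factor, was at 211, 198, 213 and 301 CPM in pools 1 to 4 and at 7.76 CPM in other T cells. Izumo1r, the folate receptor 4 of Treg cells, had a T127 ratio of 16.6 (6.02 to 63.9). Tnfrsf18, the GITR costimulatory receptor, had ratios of 4.52 (3.20 to 6.29) and 6.61 (4.64 to 9.65) in the long-term and T127 pools. Of the 10 members, 7 were at their highest level in Treg cells among 22 clusters of at least 20 cells in the long-term pools, and 9 among 15 such clusters in the T127 pools. The T127 clusters of that size left out CD8_Tn-CCR7 (18 cells), Tgd (17) and Tprf-MKI67 (1), so the counts have unlike comparators.

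**Figure D3:**
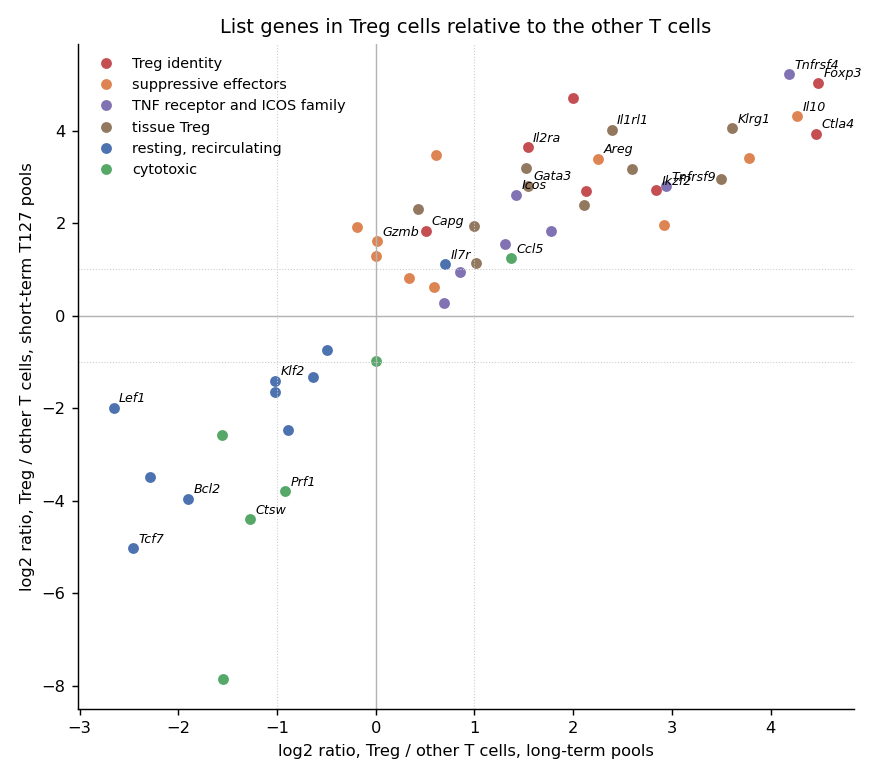
Log2 ratio of Treg to other T cells (1 CPM added to each) in the long-term pools (x axis) and the T127 pools (y axis) for list genes with at least 30 UMIs in the higher group in both experiments. Most costimulation and tissue Treg genes lie at the upper right and most resting genes at the lower left, with the resting gene Il7r at the upper right. Gzma, with 0 UMIs in T127 Treg cells, lies lowest.

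TNF receptor family members and Icos pass costimulatory signals into T cells. Of 10 such costimulation genes, 6 of 10 tested were called higher and 1 lower in the long-term pools, and 6 of 8 were called higher in the T127 pools. Tnfrsf4, the OX40 receptor, was at 3985, 3903, 3663 and 3350 CPM in T127 pools 1 to 4, and at 1542, 2721 and 3593 CPM in the lowest, median and highest long-term pool. The pools overlapped, and the ratios to other T cells were 18.3 in the long-term and 37.6 in the T127 experiment. Tnfrsf9, the 4-1BB receptor, was at 2093, 1784, 1735 and 1787 CPM in the T127 pools and reached 1385 CPM in the highest long-term pool, with no overlap. Its ratios to other T cells were 7.75 and 7.00. Icos was at 3049, 2788, 2101 and 2122 CPM in the T127 pools and between 826 and 1565 CPM in the long-term pools. Its ratio to other T cells was 2.68 in the long-term and 6.14 in the T127 pools. Tnfrsf1b, the TNF receptor 2, had ratios of 3.53 and 3.59, and Cd27 of 1.63 and 1.22.

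Most genes known from tissue Treg cells were higher in both experiments. Of 12 such genes, 8 of 9 tested were called higher in the long-term pools and 11 of 11 in the T127 pools, and the median log2 ratio over the members was 2.04 and 3.07. Over all genes tested, 5.13% and 10.9% were called higher. The 12 genes were chosen as Treg genes and could reach the minimum through Treg cells alone, so these counts only describe them. Il1rl1, the receptor of the alarmin Il33, was at 413, 409, 618 and 481 CPM in T127 pools 1 to 4 and between 42.0 and 193 CPM in the long-term pools, without overlap. Its ratio to other T cells was 5.43 in the long-term and 16.7 in the T127 pools. Klrg1, an inhibitory receptor of differentiated T cells, had ratios of 13.7 (8.94 to 20.9) and 18.5 (8.60 to 47.6). Ccr8, a chemokine receptor of tumor Treg cells, was at 89.7 CPM in the long-term and 84.6 CPM in the T127 Treg cells, with ratios of 12.8 (8.11 to 20.0) and 8.47 (4.11 to 19.7). Long-term pool 2 held the highest Ccr8 level, 204 CPM. The transcription factors Batf (4.38 and 5.30), Gata3 (2.94 and 7.12) and Maf (2.89 and 9.27) were called higher in both experiments.

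Areg, an epidermal growth factor receptor ligand that Treg cells use in tissue repair, was at 941, 1251, 1044 and 859 CPM in the T127 pools. In the long-term pools it spread from 104 through 960 at the median to 3010 CPM. The T127 pools lay inside this range. Against other T cells the ratio was 4.79 in the long-term pools, higher in 6 of 8 pools, and 10.6 in the T127 pools. Areg UMIs came from 42 long-term cells, with 62 of 498 in the richest cell, and from 60 T127 cells, with 119 of 554 in the richest.

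Of 14 genes by which Treg cells act on other cells, 4 of 9 tested were called higher in the long-term pools and 10 of 12 in the T127 pools. Il10, the anti-inflammatory cytokine, was at 65.7 CPM in long-term and 194 CPM in T127 Treg cells, with ratios of 26.8 (14.0 to 53.5) and 21.9 (10.7 to 52.0). In T127 pools 1 to 4 it was at 106, 297, 226 and 240 CPM. Ebi3, a subunit of interleukin 35, had ratios of 15.8 (10.1 to 24.8) and 11.8 (5.59 to 28.5). Lag3, an inhibitory receptor that binds major histocompatibility complex class II, had ratios of 7.91 (5.82 to 10.7) and 3.92 (2.92 to 5.32).

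Itgb8 and Lrrc32 reached the UMI minimum in the T127 pools alone. Itgb8, an integrin subunit that frees TGF-beta, was at 298, 198, 312 and 378 CPM in T127 pools 1 to 4 and at 304 against 15.5 CPM in other T cells, a ratio of 19.6 (11.4 to 36.6). Lrrc32, the GARP protein that holds latent TGF-beta on the Treg surface, was at 67.2, 112, 79.8 and 42.9 CPM in these pools and had 0 UMIs in other T cells, so its level was at least 21.6-fold higher. In the long-term Treg cells 14 UMIs of Itgb8 and 4 of Lrrc32 were found, too few to be tested, and the Itgb8 ratio to other T cells was 20.8 (8.39 to 54.5). The ectoenzymes Entpd1 and Nt5e, which turn ATP into adenosine, had T127 ratios of 13.0 (5.12 to 42.1) and 3.88 (2.35 to 6.61), and the long-term ratios were 1.59 (0.612 to 3.48) and 0.869 (0.408 to 1.64).

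Gzmb, a granzyme that Treg cells can use against other cells, was at 2396, 2267, 1968 and 1194 CPM in T127 pools 1 to 4, a ratio of 3.06 (2.77 to 3.39) to other T cells. The lowest, median and highest long-term pools held 282, 423 and 1300 CPM, and its ratio was 1.01 (0.890 to 1.15). Of 8 cytotoxic genes, 7 were tested in each experiment. In the long-term pools Ccl5, a chemokine of effector T and NK cells, was called higher and Gzma, Ctsw and Klrd1 lower, and in the T127 pools Gzmb and Ccl5 were called higher and Gzma, Prf1, Ctsw and Klrd1 lower. In the cells with 2 or more markers Ccl5 was no longer called higher in either experiment, and Nkg7 was called lower in the T127 pools. Prf1, the pore-forming perforin, had ratios of 0.528 (0.398 to 0.688) and 0.0695 (0.0376 to 0.118). Gzma had 45 UMIs in long-term Treg cells, of which 33 came from 1 cell, and 0 UMIs in T127 Treg cells, at least 42.5-fold lower than in other T cells.

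Of 8 inhibitory checkpoint genes, 4 of 5 tested were called higher in the long-term pools and 6 of 6 in the T127 pools, and each count includes Ctla4, a marker of the cluster. Pdcd1, which encodes PD-1, was at 214 against 110 CPM in the long-term pools, below the ratio that was called (it was called higher in the cells with 2 or more markers), and at 497 against 65.4 CPM in the T127 pools, a ratio of 7.59 (5.71 to 10.2). Havcr2, which encodes TIM-3, had ratios of 5.42 (3.42 to 8.39) and 8.27 (4.15 to 18.3). In the long-term cells with 2 or more markers Havcr2 did not reach the minimum to be tested. Of 10 genes of interleukin-2 signaling, 6 were tested in each experiment, and Il2ra, a marker of the cluster, was called higher in both and Cish in the T127 pools. Cish, a feedback inhibitor induced by this signal, had ratios of 1.07 (0.738 to 1.501) and 4.69 (3.33 to 6.71). Il2rb, the shared beta subunit, was at 245 against 174 CPM in the long-term and at 684 against 899 CPM in the T127 pools.

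Most genes of resting and recirculating T cells were lower. Of 10 such genes, 6 of 9 tested were called lower and none higher in the long-term pools, and 8 of 10 were called lower and 1 higher in the T127 pools, with median log2 ratios of -1.02 and -1.82. Tcf7, a transcription factor of naive and memory T cells, had ratios of 0.178 (0.105 to 0.283) and 0.0280 (0.0102 to 0.0615). S1pr1, the receptor by which T cells leave tissue, had ratios of 0.198 (0.102 to 0.348) and 0.0861 (0.0452 to 0.150). Bcl2, a survival factor, had ratios of 0.265 and 0.0616. Il7r, the interleukin 7 receptor that Treg cells usually carry at a low level, stood apart from these, at 1320 against 809 CPM in the long-term pools and at 1722 against 800 CPM in the T127 pools, where it was the member called higher.

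Chemokine receptors were mostly sparse. Of 15, 2 of 5 tested were called higher in the long-term pools and 5 of 9 in the T127 pools, where 1 was lower. Ccr1, a receptor for inflammatory CC chemokines, had ratios of 18.3 (10.9 to 31.3) and 14.3 (6.17 to 40.8). Cxcr6, the receptor of Cxcl16, was at 497 against 628 CPM in the long-term pools and at 380 against 105 CPM in the T127 pools, where its ratio was 3.603 (2.82 to 4.64). Among 12 helper T cell factors and cytokines, 1 of 6 tested was called higher and 3 lower in the long-term pools. In the T127 pools 2 were tested and 1 was called higher. The gene called higher was Gata3 in both experiments. Over all genes tested, 5.13% were called higher and 5.83% lower in the long-term pools, and 10.9% and 8.47% in the T127 pools.

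**Figure D4:**
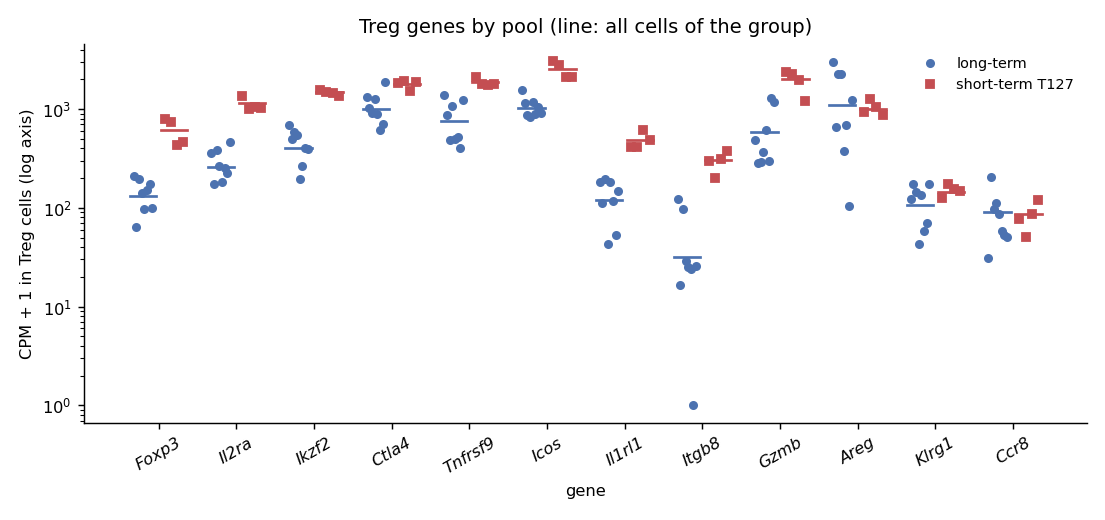
Levels of 12 genes in the Treg cells of each pool (CPM plus 1, log axis), with 8 long-term and 4 T127 pools as points and the value over all cells as a line. The T127 pools lie above the long-term pools for Foxp3, Il2ra, Ikzf2 and Il1rl1 and overlap with them for Ctla4, Gzmb and Areg.

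Activation, proliferation and interferon genes gave a mixed picture. Over all genes tested, 5.13% were called higher and 5.83% lower in the long-term pools, and 10.9% and 8.47% in the T127 pools. Of 10 genes of T cell receptor activation, 2 of 6 tested were called higher in the long-term and 4 of 8 in the T127 pools, where 1 was lower. Nr4a1, an early response gene to receptor engagement, had ratios of 2.10 (1.77 to 2.48) and 2.27 (1.91 to 2.69). Of 8 proliferation genes, none of 6 tested was called higher in the long-term pools and 1 of 7, Cdk1, in the T127 pools, and Mcm5 was called lower in both. In the cells with 2 or more markers Mcm5 was called in neither experiment. Of 8 interferon-stimulated genes, 3 of 7 tested were called higher in the long-term pools and 1 of 8 in the T127 pools, where Irf7 was called lower. The T127 counts of 1 of 7 proliferation and 1 of 8 interferon genes called higher lie near the 10.9% of all genes. Ifi27l2a was at 6006 against 1175 CPM in the long-term and at 7161 against 1544 CPM in the T127 pools. Irf7, a master factor of the interferon response, had ratios of 1.53 (1.21 to 1.92) and 0.461 (0.325 to 0.643). Of 8 genes induced by tissue dissociation, 2 of 8 were called higher in the long-term pools and 2 of 7 in the T127 pools, where Fos was called lower.

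The study gave a list of leading genes for this cluster, which was chosen on these cells and is not independent evidence of direction. Of the 25 listed genes, 14 were called higher than in other T cells in the long-term pools and 19 in the T127 pools, and none was called lower. Hopx, a homeodomain cofactor needed by Treg cells induced in the periphery, had ratios of 7.01 (6.17 to 7.95) and 4.53 (3.95 to 5.20). Against all clusters of at least 20 cells, 18 of the 25 were at their highest in long-term Treg cells and 22 in T127 Treg cells. In the T127 pools CD4_Tcm-TCF7 was the only other T cell cluster of that size, so these counts have unlike comparators.

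The 20 genes with the largest long-term ratio of Treg cells to the highest other T cell cluster, at 50 CPM or more, mixed Treg genes with genes carried by few cells. Ctla4, Foxp3, Tnfrsf4, Klrg1, Ccr8, Ebi3 and Ttc39c were found in all 8 pools. In contrast, S100a8, Cstdc4, Cxcl3 and Cstdc5 had 50% or more of their UMIs in 1 cell, as for Cxcl3 with 44 of 46 UMIs and for S100a8, a calprotectin subunit of neutrophils, with 82 of 156. Of these 20 genes, 15 had a log2 ratio of 1 or more in the T127 pools. Penk, the precursor of enkephalin peptides, had a ratio of 27.6 (20.9 to 36.7) in the long-term pools and 2.99 (2.42 to 3.72) in the T127 pools, with UMIs from 19 and 21 cells. Gpr55, a lipid receptor, had ratios of 17.5 (9.80 to 31.5) and 32.5 (13.5 to 102.1), and Il1r2, the interleukin 1 decoy receptor, of 19.5 (12.6 to 30.5) and 9.33 (5.01 to 18.9).

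The 15 genes lowest in long-term Treg cells included 5 granzymes and genes of gamma-delta T cells. Gzmf had 0 UMIs in Treg cells, so it was at least 154-fold lower than in other T cells, and Gzmd was at least 113-fold lower. Gzmc was at 175 against 1861 CPM, a ratio of 0.0941 (0.0746 to 0.117). Trdc, the constant segment of the delta receptor chain, had a ratio of 0.158 (0.107 to 0.225) in the long-term pools, and with 0 UMIs it was at least 49.1-fold lower in the T127 pools. Of these 15 genes, 12 had a log2 ratio of -1 or less in the T127 pools.

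The long-term cells with few markers differed from those with several in genes that had not been used to divide them. Tnfrsf4 was at 3627 CPM in the 72 cells with 2 or more markers and at 543 CPM in the 41 others, a ratio of 6.68 (5.38 to 8.38), and was higher in 8 of 8 pools. Areg was at 1618 against 163 CPM, higher in 7 of 8 pools, and Hopx at 1161 against 229 CPM in the same order in 8 of 8. Klrg1 was at 158 against 12.1 CPM and Tnfrsf9 at 1061 against 235 CPM, each higher in 8 of 8 pools. Ccl5 ran the other way, at 979 against 2601 CPM, and was lower in 6 of 8 pools. Klf2, a factor of quiescent T cells, was at 306 and 308 CPM. The directions by pool rest on few cells. The cells with 0 or 1 marker numbered 1 in pool 1, 4 in pool 2, 2 in pool 3 and 3 in pool 8. Klrg1 was sparse in these cells, so its count of pools adds little.

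Some genes of other T cell classes were found in the cells with few markers and others in both kinds of cells. Gzma (45 UMIs), Gzmc (80), Il17a (41), Xcl1 (75) and Cd8a (13) had 0 UMIs in the cells with 2 or more markers, with Xcl1 chosen after its values were seen. Trdc had 1 UMI there against 30, and Tcrg-C1, a gamma receptor chain, had 1 against 37. Gzmb was at 594 CPM in the cells with 2 or more markers and at 555 CPM in the others. Several of these genes came from few cells, as for Il17a with 36 of 41 UMIs in 1 cell. In the 72 cells with 2 or more markers, 9 of 9 tested tissue Treg genes and 8 of 10 costimulation genes were called higher than in other T cells. Of the costimulation genes 1, Cd40lg, was called lower. Of 7 cytotoxic genes tested 4 were called lower and none higher. Markers of other cell types in all long-term Treg cells summed to 276 CPM for macrophages (390 in other T cells), 123 CPM for NK cells (335), 147 CPM for B cells (107), 195 CPM for malignant epithelium (91.2) and 210 CPM for fibroblasts (114). Each of these lists had all its markers above 0 except that of malignant epithelium, with 1 of 5 at 0. In T127 Treg cells the same lists summed to 119 CPM (87.6 in other T cells), 36.0 CPM (620), 115 CPM (99.8), 71.97 CPM (37.7) and 73.8 CPM (69.9), with 3 of 5 B cell, 2 of 5 epithelial and 1 of 5 fibroblast markers at 0. The dendritic cell list, which shares Bst2 with the interferon list, summed to 423 CPM in long-term Treg cells against 245 CPM in other T cells, with 3 of 5 markers at 0, and to 284 against 390 CPM in the T127 pools. The endothelial list summed to 8.76 against 38.8 CPM and to 36.0 against 95.4 CPM. The part of these transcripts in the results was not tested.

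**Figure D5:**
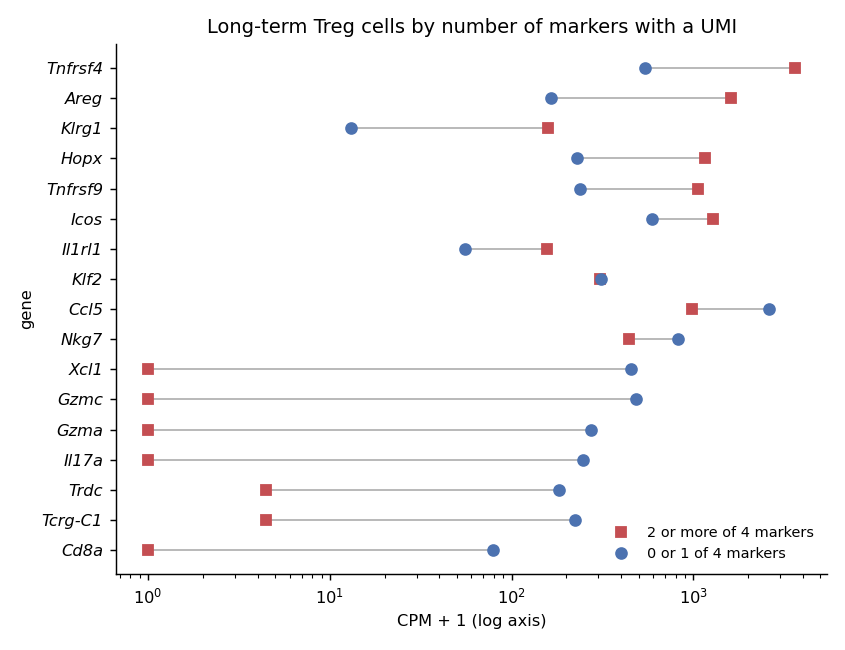
Levels of genes in long-term Treg cells with 2 or more of the 4 markers (squares, 72 cells) and with 0 or 1 marker (circles, 41 cells), as CPM plus 1 on a log axis. Tnfrsf4, Areg and Hopx were higher in the former, and Gzma, Il17a and Xcl1 had 0 UMIs there.

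Within the T127 Treg cells, those with and without a Foxp3 UMI differed in other genes, with median depths of 3257 and 3228 UMIs and no matching of cells on depth. Gzmb was at 2481 CPM in the 111 cells with a Foxp3 UMI and at 586 CPM in the 38 without, a ratio of 4.24 (3.38 to 5.38), and was higher in 4 of 4 pools. The proliferation genes Mki67 (369 against 43.4 CPM) and Top2a (316 against 14.5 CPM) were also higher, in 4 of 4 and 3 of 4 pools. Areg ran opposite, at 642 against 2069 CPM, a ratio of 0.310 (0.262 to 0.368), and was lower in 4 of 4 pools. Among the T127 cells with 2 or more markers Areg was at 642 against 2576 CPM, again lower in 4 of 4 pools. In the long-term cells Areg was at 1709 CPM in the 45 cells with a Foxp3 UMI and 651 CPM in the 68 without, but the latter held most of the cells with few markers. Among the long-term cells with 2 or more markers it was at 1738 against 1403 CPM, a ratio of 1.24 (1.02 to 1.52), higher in 4 of 8 pools and lower in 4.

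The T127 and long-term Treg cells were also set side by side, although tumor model, days and experiment differ between them. At the same thresholds 848 of 3367 genes (25.2%) were higher in T127 Treg cells and 221 (6.56%) were lower, and after the ratios were centred on the median of all genes tested, a log2 ratio of 0.34, the split was 541 higher and 412 lower. After thinning it was 429 and 117. Without T127 pool 1 the number called higher was 546. In other T cells 1020 of 5101 genes were higher and 346 lower in the same contrast, and 463 of the 848 Treg genes (54.6%) and 101 of the 221 (45.7%) had the same call there. Of the 848 and 221 genes, 748 and 212 were tested in other T cells. Among the cells with 2 or more markers, 756 genes were higher and 160 lower of 2891.

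Most identity and suppressive genes tested were higher in T127 Treg cells. Of 8 identity genes tested 6 were called higher and none lower (5 of 8 in the cells with 2 or more markers). Of 12 suppressive genes 8 were higher and none lower (7 of 12). Over all genes tested in this contrast, 25.2% were called higher and 6.56% lower. A member could reach the minimum through T127 Treg cells alone, so these counts only describe the lists. Foxp3 was 4.67-fold (3.54 to 6.25) higher in T127 than in long-term Treg cells, and the ratio in other T cells was 3.62. Il2ra was 4.40-fold higher in Treg cells, while its ratio in other T cells was 1.02. Icos had a Treg ratio of 2.47 beside 1.08 in other T cells, and Il1rl1 of 4.08 beside 1.33, and neither overlapped between the pools. Gzmb had ratios of 3.47 and 1.15, but its pools overlapped.

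Other genes were near equal over all Treg cells of both experiments or had a like ratio in other T cells. Ccr8 (0.942), Areg (0.914), Ebi3 (1.04) and Maf (1.07) had Treg ratios near 1. These ratios include the cells with 0 or 1 marker, 41 of 113 long-term and 9 of 149 T127 cells, so the mix of cells differs. In the cells with 2 or more markers these genes were called neither higher nor lower, but a difference under the ratio of a call can remain. Itgb8 was 9.92-fold higher in T127 Treg cells and 10.5-fold in other T cells, and Tnfrsf1b 5.65-fold and 5.55-fold. Itgb8 did not reach the minimum to be tested in other T cells and had few UMIs in long-term Treg cells, so its ratios are imprecise. Hbb-bs, a hemoglobin chain of red blood cells, was at 3581 CPM in long-term and 14.4 CPM in T127 Treg cells, and at 4027 and 13.3 CPM in other T cells, and was found in 112 of 113 long-term Treg cells. Of the 10 genes highest in T127 Treg cells by ratio, Sgip1, an endocytic adaptor, was at 158 against 13.1 CPM, a ratio of 12.1 beside 1.56 in other T cells. Serpinb9b, in that list too, came from T127 pool 2 alone, at 421 CPM. Of the 10 lowest, Il17a, Il22, Gzma and Acta2 drew most of their long-term UMIs from 1 cell each.

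In the T22 pools the cluster held 5 cells, but Foxp3 was found beyond it. Among T cells of any cluster a Foxp3 UMI was found in 46 of 3505 T22 cells, 1.31% (0.962 to 1.75), and 3 of these were in the Treg cluster. In the T127 pools 111 of 120 such cells (92.5%) were in the cluster and in the long-term pools 45 of 69 (65.2%). In T22 tumors 37 of the 46 were in CD4_Tcm-TCF7, with 8, 6, 13 and 10 in pools 1 to 4, and 6 in Tprf-MKI67. Foxp3 was found in 0 of 1193 T22 NK cells, which allows a share of cells with a UMI of up to 0.251%.

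The 37 T22 cells of CD4_Tcm-TCF7 with a Foxp3 UMI held other Treg transcripts. Against the 2401 cells of that cluster without one (median depth 4105 and 6448 UMIs), Ctla4 was at 1403 against 34.8 CPM, higher in 4 of 4 pools. Tnfrsf4 was at 1201 against 29.0 CPM and Il1rl1 at 622 against 41.7 CPM, and Ikzf2 was at 920 against 113 CPM. Ccl5 was lower, at 101 against 1249 CPM, in 4 of 4 pools. Xcl1 and Gzma had 0 UMIs in the 37 cells, and 6548 and 2244 UMIs summed over the 2401 deeper cells. These sums come from sets of very unlike size, so they are not a ratio of levels. In the T127 and long-term pools 9 of 204 and 23 of 1136 cells of that cluster had a Foxp3 UMI, with Ctla4 at 1814 against 65.3 CPM and at 490 against 43.9 CPM.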

How the data were processed

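Single-cell RNA was measured in 16 pools of hashtagged tumors. Per the labels and the submitters' processing notes, the authors made gene by cell counts with Cell Ranger 6.0.0 (GRCm38, introns included), filtered cells, removed doublets with Scrublet and named clusters, and the deposited UMI counts were used as they are. The deposited normalized tables were not used. Doublets were not called again. Long-term barcodes found in several pools were kept at their deepest copy, which removed 5122 cells, 3 of them Treg cells. Pools held 34755906 to 55600377 UMIs. Counts were summed per pool and cluster with Python 3.11.15, numpy 2.4.6, scipy 1.17.1 and pandas 2.3.3, and figures used matplotlib 3.10.9. Scripts were tested on simulated data. Genes were called at a ratio of 2 (20 CPM and 30 UMIs in the higher group, pseudocount 1 CPM). Named genes were the 20 with the largest long-term ratio to the highest other T cell cluster, the 15 with the smallest ratio to the other T cells together, the 10 highest and 10 lowest of T127 against long-term Treg cells (each at 50 CPM or more), and list members. Members and lists were chosen with earlier results of these data known. Alternatives changed the CPM minimum, pseudocount, thinning, reference, weights, barcode copies, cell filters and pools. The splits of Treg cells by marker number and by Foxp3 were added after seeing the data, as were the Foxp3 count beyond the cluster and the centring.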

Additional observations from a re-analysis of the deposited data

Results flagged for a closer look

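A pool stood apart from the rest of its experiment, by the gap to its nearest neighbor as a part of the range, in 13 of 47 sets of pools examined, where chance gives about 1 in 20 for well-behaved values, a rate that cannot be read for genes with most UMIs in 1 cell. In the T22 pools, pool 4 held 0.230% Treg cells among T cells, with the nearest pool at 0.118%, and this rests on 2 cells. In the long-term Treg cells, Icos was at 1565 CPM and Cd4 at 331 CPM in pool 1, and Ccr8 was at 204 CPM in pool 2. In the same cells Trdc was at 532 CPM in pool 3, Acta2 at 655 CPM in pool 6 and Gzma at 837 CPM in pool 8. Il17a was at 624 CPM and the chemokine Cxcl2, named after its values were seen, at 4125 CPM in pool 7. The richest cell for each gene gave 36 of 41 Il17a UMIs and 236 of 357 Cxcl2 UMIs. Whether this was the same cell was not examined. In the T127 Treg cells, pool 1 was highest for Il2ra (1340 CPM) and Tnfrsf9 (2093 CPM) and lowest for Cd4 (250 CPM, with the nearest pool at 359 CPM). Tcf7 was at 33.2 CPM in T127 pool 3, with the nearest pool at 4.80 CPM.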

How the results depend on the processing

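Of 144 values of counts and shares recomputed under alternatives, 125 stayed within 1.5 times or the spread between pools, as did 250 of 284 values of single genes and lists. The number of genes called lower in long-term Treg cells (218) was 463 at a minimum of 10 CPM, 87 at 50 CPM, 439 after thinning to 2000 UMIs, 518 in cells with a Foxp3 UMI and 377 in cells with 2 or more markers. The number called higher there (192) was 121 after thinning. In the T127 pools 692 genes were higher (458) and 536 lower (355) with reference clusters weighted equally, and 202 were lower after thinning. Between T127 and long-term Treg cells, 429 were higher (848) and 117 lower (221) after thinning, and 541 and 412 after centring on the median of all genes tested. The share of Treg cells with a Foxp3 UMI at 2000 UMIs was 16.8% at 1000 UMIs and 39.8% unthinned in the long-term pools, and 47.6% and 74.5% in the T127 pools. The T22 share of 0.143% was 1.31% when T cells of any cluster with a Foxp3 UMI were counted. Leaving out a pool in turn gave 165 to 183 genes higher and 216 to 263 lower in the long-term pools, 341 to 426 and 281 to 345 in the T127 pools, and 546 to 875 and 176 to 252 between them, with 546 without T127 pool 1. The Treg shares then were 6.41% to 7.92%, 34.9% to 41.8% and 0.114% to 0.154%. The median log2 ratio of the dendritic cell list in the T127 pools was -1.08 and, with CD4_Tcm-TCF7 alone as reference, 0.31. The cause of these changes was not tested. No paired analysis was possible because, between experiments, pools with the same number hold different tumors. Within an experiment Treg and other T cells share pools, so a comparison paired by pool could have been made there, but it was not run. Counts of pools by direction are given for Areg and for the splits of cells only. Depth limits genes under about 30 UMIs in Treg cells, and 5 T22 cells allow no statement on single genes.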

Other observations

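Ligands of receptors known from Treg cells were found in other clusters of the same tumors, and are given as levels with no test. The receptor Ccr4 was not called higher in Treg cells in either experiment, and a gene below the UMI minimum could not be called. Among the 15 T127 clusters of at least 20 cells, its level was highest in Treg cells. Il33, the ligand of Il1rl1, was highest in the inflammatory fibroblast cluster i_CAF in each experiment, at 345 CPM in the long-term, 294 CPM in the T127 and 145 CPM in the T22 pools. Ccl17, a ligand of Ccr4, was highest in the monocyte cluster CD14-IL1B, at 1325, 1514 and 183 CPM. Ccl22, another Ccr4 ligand, was at 165 CPM in CD14-PF4 in the long-term pools and at 566 and 323 CPM in CD14-IL1B in the T127 and T22 pools.

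Ccl8, a Ccr8 ligand in mice, was at 1079 CPM in Macro-M2 in the long-term pools and at 495 CPM in CD16-CDKN1C in the T127 pools, where these were the highest clusters. Ccl1, the other Ccr8 ligand, was highest in CD8_Tn-CCR7 in the long-term pools, at 614 CPM, and in NK cells in the T22 pools, at 89.7 CPM. In T127 tumors Ccl1 was highest in the Treg cells themselves, at 12.6 CPM from 7 UMIs. Tgfb1 and Pvr were highest in groups of 5 or fewer cells in some experiments and are not given.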
